A study of Mus musculus with 6 samples.

Results

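The integrated stress response and the serine synthesis branch that depends on it were examined through 10 genes in the bulk RNA sequencing data of a mouse model of Friedreich's ataxia. The 10 genes were listed by name (*Atf4*, *Atf5*, *Ddit3*, *Trib3*, *Asns*, *Sesn2*, *Phgdh*, *Psat1*, *Shmt2* and *Mthfd2*), and all 10 had a row among the 31053 genes of the count table. There were 2 WT and 3 knock-in knock-out (KIKO) libraries. The labels name the cerebellum and the genotype without age, sex or treatment. KIKO mice carry one knock-in and one knock-out allele in every tissue, whereas the WT mice were C57BL/6 littermates per the methods of the study. These methods describe a magnetic sort of cerebellar cells for CD11b and CD45 at 6 mo of age, which the labels do not mention. Nothing in the labels says that each library is a separate animal, so the tests measure the spread between these libraries.

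The integrated stress response begins when one of several kinases phosphorylates the translation factor eIF2alpha, which lowers general translation and favours that of *Atf4*. The ATF4 protein then activates genes for amino acid uptake, amino acid synthesis and transfer RNA charging, and, in prolonged stress, the gene for CHOP. Defects of the mitochondrial respiratory chain are known to engage this programme, with serine synthesis and the mitochondrial folate enzymes among its targets. Because ATF4 is controlled mainly at translation, its mRNA reports the response only in part.

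Among the 7 genes tested, no difference between KIKO and WT mice was detected beyond the spread between libraries. The remaining members had too few counts for a test, and the wide intervals do not show that levels were equal. *Atf4* mRNA was nearly equal in both genotypes, at 372 ± 67.0 (SD, n = 2) and 363 ± 11.0 (SD, n = 3) normalized CPM, the read counts scaled to a common library size. For each of the genes of serine synthesis and folate metabolism, the SD between KIKO libraries exceeded the difference between the genotype means. The SD between WT libraries was smaller than that difference. *Psat1* had the largest point estimate, a log2 fold change of 1.02, with a 95% interval from -0.96 to 3.01. Of the 10 genes, 7 had enough counts to be tested, and 0 of these 7 passed the thresholds of the study, an absolute log2 fold change over 0.75 and an unadjusted p under 0.05. Over all 10889 genes tested, 1.2% passed these thresholds, so fewer than 1 of 7 would be called at that rate. The adjusted p was 1 for each of the 7 genes (edgeR's quasi-likelihood test, Benjamini-Hochberg over all genes). No gene of the whole table passed an adjusted p of 0.05 in this fit.

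The libraries held between 1013107 and 1351339 counts. The floor used here, 3 counts, was worth 2.28 to 3.04 CPM depending on the library. This floor and the Poisson intervals hold only the error of counting. KIKO replicate 2 stood apart from the other libraries. Its log2 CPM values gave Pearson's r between 0.636 and 0.711 with the other libraries, whose pairs reached 0.868 to 0.919. These r are across genes, and genes are no independent replicates. The biological coefficient of variation was 0.468 with all 5 libraries and 0.243 without it, and results are therefore also given without this library. Summed over 12 microglial markers, the level was between 5393 and 6834 CPM in WT and between 4696 and 12130 in KIKO libraries. Markers of other cells were present as well, with 2263 to 4463 CPM over 8 neuronal markers, 4573 to 19000 over 7 oligodendrocyte markers and 7874 to 15570 over 6 choroid plexus markers. In such bulk libraries, fewer cells of a type and less RNA per cell cannot be told apart.

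**Figure D1:**
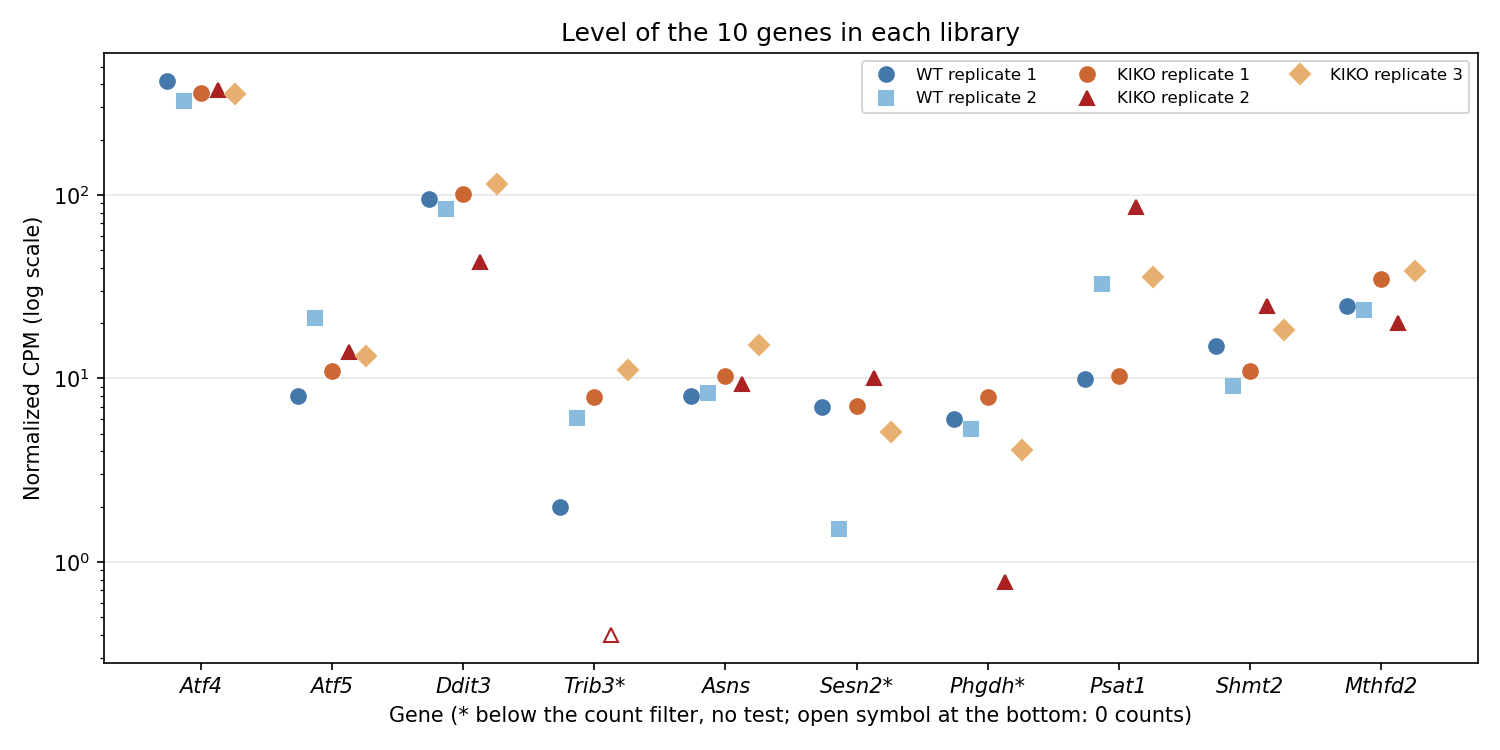
Normalized CPM (log axis) of the 10 genes in each of the 2 WT and 3 KIKO libraries, 1 symbol per library. *Atf4* lies between 325 and 419 CPM in all 5 libraries, *Psat1* spreads from 9.96 to 85.8 CPM, and *Trib3* has 0 counts in KIKO replicate 2, drawn as an open symbol at the bottom.

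Promoter sequences are shown for the genes in which a composite element of ATF4 and C/EBP partners was found, because this is the letter pattern through which ATF4 is known to act on its targets. The sequences are those of RefSeq on GRCm38.p6, from 250 bases before to 50 bases after a start, and all 10 genes were matched. TGATGNAA, in either orientation, was found for 2 of the 10 genes, *Trib3* and *Asns*, and in 4.51% of all 27025 genes (3.97% of 32851 promoters). TGNTGCAAT, a form added after the sequences were read and able to overlap the first, was found for *Trib3* and *Psat1* and in 0.781% of all genes (0.673% of promoters). The matches that lie wholly before the start are printed 5′ to 3′ on the strand of the gene, with the match in capitals, and all 3 genes are on the minus strand.

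*Asns*, chr6:7693215-7693242: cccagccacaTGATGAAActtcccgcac

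*Trib3*, chr2:152344075-152344103: gggtcacagaTGGTGCAATcccgggccgc

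*Psat1*, chr19:15925177-15925205: cgcgggtggcTGGTGCAATcccctgctct

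The match began 23 bases before the RefSeq start in *Asns*, 33 bases in *Trib3* and 136 bases in *Psat1*. In GENCODE M21, where some transcripts start further upstream, the stretch lies in the first exon (5′ UTR) of an *Asns* transcript, in no gene for *Trib3* and in an intron of a long *Psat1* transcript. The stretches of *Trib3* and *Psat1* shared a run of 12 letters, most of them the match itself. As that form was added after the sequences were read, the shared run is no separate evidence of likeness. These letters describe the sequence and not a bound site, and their absence from the other windows says nothing of sites elsewhere. Of the 252 tested genes with TGATGNAA in a promoter, 1 passed the thresholds, or 0.397%, and their median log2 fold change was 0.00. Of the 50 tested genes with TGNTGCAAT, 0 passed, with a median of -0.21. Over all 10889 genes tested, 1.2% passed and the median was 0.02. These counts are therefore not read as a result about genes with either form. *Trib3* and *Psat1* were the least alike pair of the 10 genes in level when 0 counts were kept as 0. The root mean square difference of their log2(CPM + 0.5) values over the 5 libraries, each centred on its WT mean, was 2.49. That value depends on the 0 counts of *Trib3* in KIKO replicate 2. With counts under the floor set to the floor it was 1.54, and *Phgdh* and *Psat1* were then the least alike at 1.80.

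Among the transcription factors, *Atf4* (chromosome 15, 80255184 to 80257541, GRCm38), the central factor of the response, had 419 and 325 CPM in WT replicates 1 and 2. It had 358, 376 and 355 CPM in KIKO replicates 1, 2 and 3. All KIKO values lay between the 2 WT values. *Atf4* had 350 to 486 counts per library, the most of the 10 genes. Its log2 fold change was -0.04 (standard error 0.35, 95% interval -0.84 to 0.77), and without KIKO replicate 2 it was -0.06 with an interval from -0.58 to 0.46.

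*Ddit3* (chromosome 10, 127290774 to 127296288), which encodes CHOP, the factor linked to cell death in unresolved stress, had 94.6 and 84.2 CPM in WT mice. It had 102, 43.3 and 115 CPM in KIKO replicates 1, 2 and 3. KIKO replicates 1 and 3 were above both WT libraries and KIKO replicate 2 was below them. KIKO over WT gave a log2 fold change of -0.05 (standard error 0.47), and without KIKO replicate 2 it was 0.27 (standard error 0.30, unadjusted p = 0.359). The sign also turned, to 0.04, without WT replicate 1. Its exons overlap those of *Mars* on the opposite strand, and the strand setting of the counting is not given in the sources used here. A second *Ddit3* identifier of the annotation, inside the same locus, had 0 counts in every library.

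*Atf5* (chromosome 7, 44812256 to 44816658), a relative of *Atf4* known for its part in the mitochondrial unfolded protein response, had 7.97 and 21.2 CPM in WT mice. KIKO replicates 1, 2 and 3 had 11.0, 13.9 and 13.2 CPM, all between the WT values. The log2 fold change was -0.21 (standard error 0.69, 95% interval -1.78 to 1.36). *Atf5* overlaps exons of *Il4i1* and *Nup62* on the opposite strand. *Trib3* (chromosome 2, 152337422 to 152344032), a pseudokinase that restrains ATF4 and CHOP, did not pass the count filter. Its counts were 2 and 8 in WT replicates 1 and 2 and 10, 0 and 11 in KIKO replicates 1, 2 and 3. For the 0 counts of KIKO replicate 2, the exact 95% Poisson interval reached 2.85 CPM, and the floor of 3 counts was 2.32 CPM. KIKO replicates 1 and 3 had 7.89 and 11.2 CPM. *Trib3* thus differed more between KIKO libraries than between the genotype means, 4.03 ± 2.88 (SD, n = 2) and 6.35 ± 5.74 (SD, n = 3) CPM.

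Of the amino acid response genes, *Asns* (chromosome 6, 7675169 to 7693254), which encodes asparagine synthetase, had 7.97 and 8.34 CPM in WT mice. It had 10.25, 9.27 and 15.2 CPM in KIKO replicates 1, 2 and 3. All 3 KIKO libraries were above both WT libraries, and *Asns* was the only one of the 7 tested genes whose groups did not overlap. Among all tested genes, 16.7% had groups that did not overlap, 8.2% with KIKO higher, so 1 of 7 was near the background. Its counts were 8 and 11 in WT and 13, 12 and 15 in KIKO libraries. The exact 95% Poisson interval of each library held the values of the other libraries of its genotype. That of WT replicate 1, 3.44 to 15.7 CPM, also held every KIKO value. Those of KIKO replicates 1 and 2, 5.46 to 17.5 and 4.79 to 16.2 CPM, held both WT values. The interval of KIKO replicate 3 held neither WT value, and that of WT replicate 2 did not hold the value of KIKO replicate 3. Fitted across genes, the log2 fold change was 0.49 (standard error 0.74, 95% interval -1.19 to 2.18, unadjusted p = 0.522). With 2 against 3 libraries, an exact permutation test of a single gene cannot give a p below 0.1.

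*Sesn2* (chromosome 4, 132492032 to 132510501), which encodes a leucine sensor that restrains mTORC1, did not pass the count filter. It had 7 and 2 counts in WT replicates 1 and 2 and 9, 13 and 5 counts in KIKO replicates 1, 2 and 3. These correspond to 6.97 and 1.52 CPM in WT and to 7.10, 10.1 and 5.07 CPM in KIKO mice. The KIKO range held the value of WT replicate 1, and WT replicate 2 was below the floor. When every gene with at least 1 count was fitted, *Sesn2* had a log2 fold change of 0.82 with an unadjusted p of 0.518.

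The serine pathway runs from the glycolytic intermediate 3-phosphoglycerate through PHGDH, PSAT1 and PSPH to serine, whose carbon SHMT2 and MTHFD2 pass to folate in mitochondria. *Phgdh* (chromosome 3, 98313170 to 98339990), the gene of the committed step, was close to the floor. It had 6 and 7 counts in WT replicates 1 and 2 and 10, 1 and 4 counts in KIKO replicates 1, 2 and 3. The highest and the lowest of the 5 libraries were both KIKO. *Phgdh* did not pass the count filter, and among all genes with at least 1 count its log2 fold change was -0.40 (unadjusted p = 0.768).

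*Psat1* (chromosome 19, 15904678 to 15947337), the aminotransferase gene of the next step, had 9.96 and 32.6 CPM in WT replicates 1 and 2. It had 10.25, 85.8 and 35.5 CPM in KIKO replicates 1, 2 and 3. The lowest library of each genotype was nearly the same, and the highest exceeded the lowest of all 5 by 8.61-fold. This spread was beyond counting error, since the exact 95% Poisson intervals were 70.6 to 103 CPM in KIKO replicate 2, 24.7 to 49.4 in KIKO replicate 3 and 5.46 to 17.5 in KIKO replicate 1. The log2 fold change of 1.02 (standard error 0.87, unadjusted p = 0.271) fell to 0.04 (standard error 0.56) without KIKO replicate 2. In that library *Psat1* was 2.21 above its WT mean on the log2(CPM + 0.5) scale. *Phgdh*, with 1 count, was under the floor, and the floor itself stood at -1.12 from the WT mean. The summed level of the 7 oligodendrocyte markers in WT replicates 1 and 2 was 5206 and 11890 CPM. It was 4573, 19000 and 5834 CPM in KIKO replicates 1, 2 and 3. KIKO replicate 2 thus had the highest sum of these markers as well as the highest level of *Psat1*. That library was the highest or the lowest for 71% of all genes tested. The part of oligodendrocyte RNA in the *Psat1* level was not tested.

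*Shmt2* (chromosome 10, 127517123 to 127522444), the mitochondrial serine hydroxymethyltransferase gene, had 14.9 and 9.10 CPM in WT mice. KIKO replicates 1, 2 and 3 had 11.0, 24.7 and 18.3 CPM. KIKO replicates 2 and 3 were above both WT libraries and KIKO replicate 1 lay between them. Its log2 fold change was 0.59 (standard error 0.66, unadjusted p = 0.401), and it was 0.29 (standard error 0.66) without KIKO replicate 2. *Shmt2* overlaps exons of *Ndufa4l2* on the opposite strand. *Mthfd2* (chromosome 6, 83305691 to 83325908), whose enzyme is a common mark of the mitochondrial stress programme, had 24.9 and 23.5 CPM in WT mice. KIKO replicates 1, 2 and 3 had 34.7, 20.1 and 38.6 CPM, so that KIKO replicates 1 and 3 were above and KIKO replicate 2 below the WT libraries. For *Mthfd2* the log2 fold change was 0.36 (standard error 0.51, unadjusted p = 0.499), and without KIKO replicate 2 it was 0.59 (standard error 0.43, unadjusted p = 0.174).

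**Figure D2:**
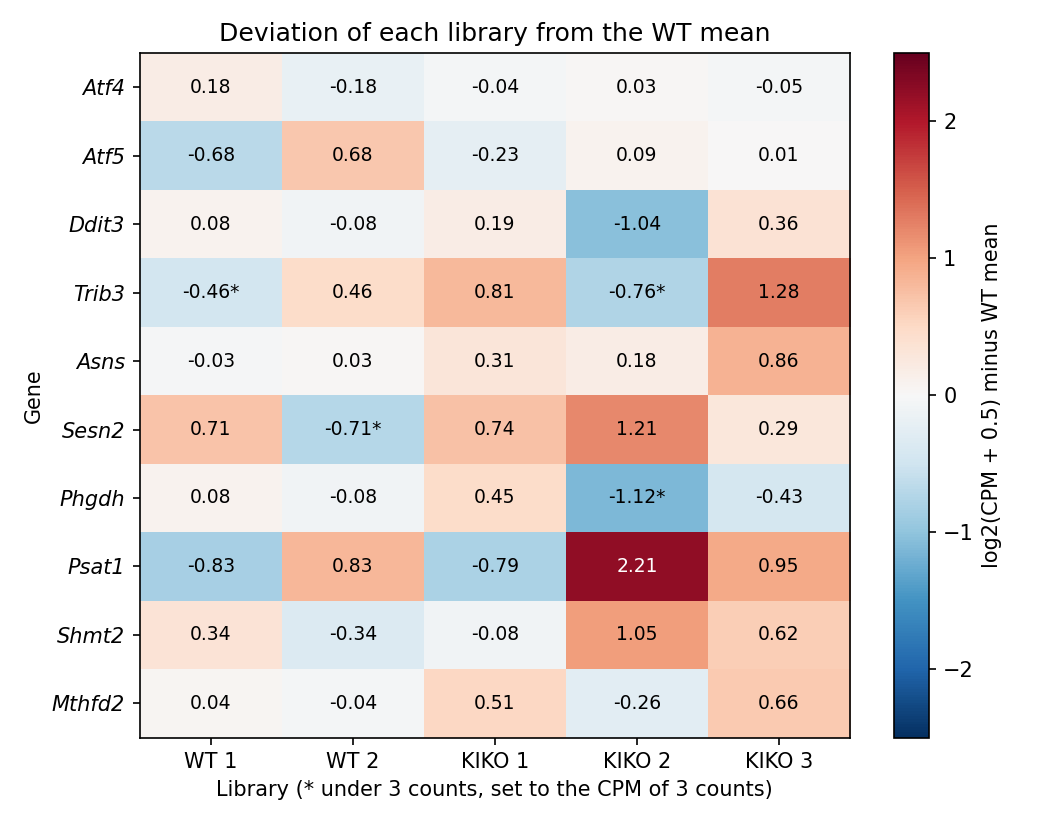
Deviation of each library from the WT mean, as log2(CPM + 0.5), for the 10 genes (rows) in the 5 libraries (columns), with red above and blue below the WT mean and an asterisk where fewer than 3 counts were set to the floor of 3. The strongest colour is that of *Psat1* in KIKO replicate 2, at 2.21, and the lowest values in that column are -1.12 at the floor for *Phgdh* and -1.04 for *Ddit3*.

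The 10 genes did not move as a block. The 2 with the most similar pattern were *Asns* and *Mthfd2*, with a root mean square difference of 0.24 on the same log2 scale with or without the floor, and both were highest in KIKO replicate 3. The 4 serine and folate genes together summed to 55.8 and 70.5 CPM in WT replicates 1 and 2 and to 63.9, 131 and 96.4 CPM in KIKO replicates 1, 2 and 3. The 3 transcription factors with *Trib3*, in contrast, summed to 524 and 436 CPM in WT and to 479, 433 and 494 CPM in KIKO mice, of which *Atf4* made up the greater part. Among the 7 tested genes, 4 had a positive and 3 a negative log2 fold change, with a median of 0.36 beside 0.02 over all genes tested (0.27 beside -0.01 without KIKO replicate 2). KIKO replicate 2 was the highest or the lowest library for 4 of the 7 genes (57.1%) and for 71% of all genes tested.

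**Figure D3:**
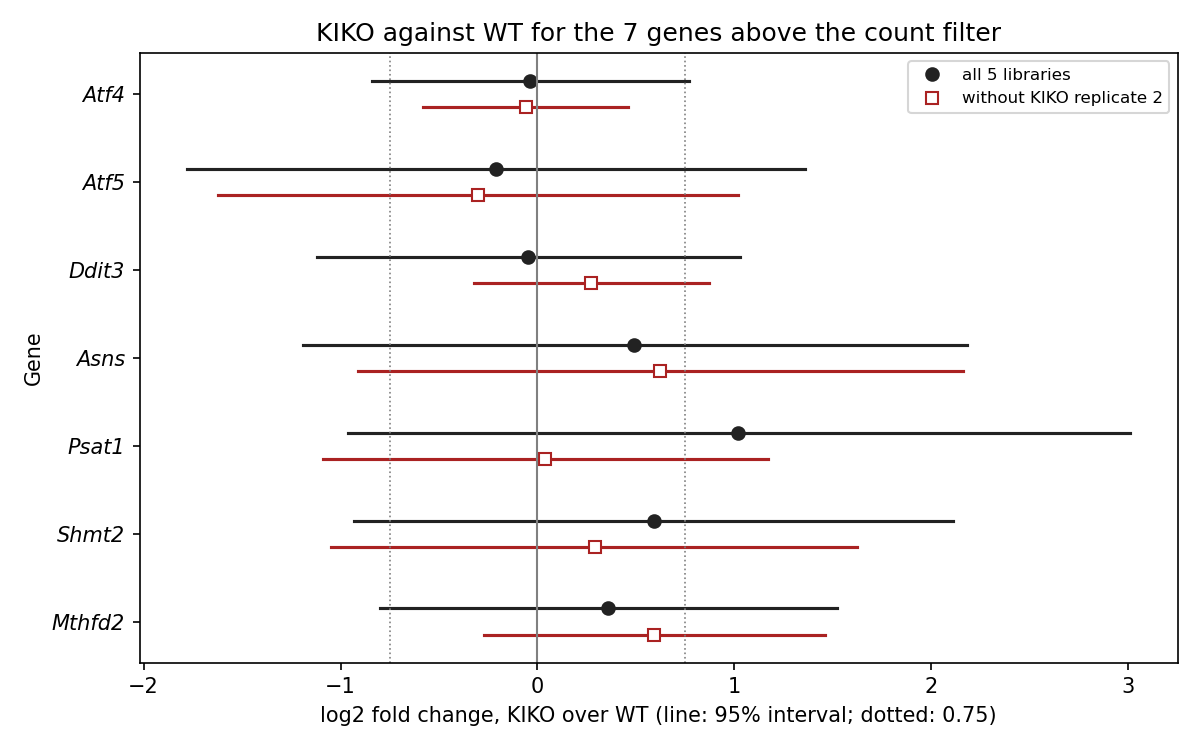
Log2 fold change of KIKO over WT (x axis) with its 95% interval for the 7 genes above the count filter, with all 5 libraries (black circles) and without KIKO replicate 2 (open red squares). Every interval holds 0, and *Psat1* moves from 1.02 to 0.04 when KIKO replicate 2 is left out.

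Upstream of *Atf4*, a list of 14 genes held the 4 eIF2alpha kinases, eIF2alpha itself, the regulatory subunits of its phosphatase, the 5 subunits of the exchange factor eIF2B, and *Oma1* and *Dele1*, which relay mitochondrial stress. Of its 12 tested genes, 10 had a negative log2 fold change and 0 passed the thresholds, with a median of -0.41. Without KIKO replicate 2 the list had 5 positive and 7 negative values and a median of -0.06. *Ppp1r15a*, which encodes GADD34, the stress-inducible phosphatase subunit that ends the response, had 114 and 96.3 CPM in WT mice. It had 49.7, 90.4 and 51.8 CPM in KIKO replicates 1, 2 and 3, all below both WT libraries. With scaling by library size alone, *Ppp1r15a* overlapped between the groups. Its log2 fold change was -0.71 (standard error 0.41, unadjusted p = 0.118). *Ppp1r15b*, the constitutive counterpart, had 54.8 and 32.6 CPM in WT mice and 20.5, 44.1 and 20.3 CPM in KIKO replicates 1, 2 and 3 (log2 fold change -0.62, standard error 0.53, unadjusted p = 0.281). *Eif2ak1*, the gene of the heme-regulated kinase HRI that receives the mitochondrial signal, had 77.7 and 51.6 CPM in WT mice. KIKO replicates 1, 2 and 3 had 47.3, 45.6 and 49.7 CPM, below both WT libraries (log2 fold change -0.44, standard error 0.39, unadjusted p = 0.294).

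Both phosphatase subunits passed the thresholds once KIKO replicate 2 was left out. *Ppp1r15a* then stood at a log2 fold change of -1.05 (with standard error 0.32, unadjusted p = 0.00202, adjusted p = 0.291 in edgeR's test) and *Ppp1r15b* of -1.08 (standard error 0.44, unadjusted p = 0.0171, adjusted p = 0.513). In that fit 6.36% of all genes passed the thresholds, 3.44% in the lower direction, and 0 of the 7 members and 4 of the 105 tested pathway genes passed. *Ppp1r15a* has exons that overlap *Tulp2* on the opposite strand, and *Ppp1r15b* overlaps *Gm26616* in the same way.

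Among 23 other ATF4 targets, 19 were tested, 10 of them with a positive and 9 with a negative log2 fold change (median 0.05), and 0 passed the thresholds. Without KIKO replicate 2, 6 were positive and 13 negative (median -0.14). *Slc38a2*, which encodes the amino acid transporter SNAT2, had 199 and 249 CPM in WT mice. It had 349, 428 and 330 CPM in KIKO replicates 1, 2 and 3, so that every KIKO library was above both WT libraries. The log2 fold change was 0.72 (standard error 0.37, unadjusted p = 0.0840), and without KIKO replicate 2 it was 0.60 (unadjusted p = 0.0266), under the fold threshold. *Slc7a11*, the cystine transporter gene, had 11.95 and 6.83 CPM in WT mice and 12.6, 19.3 and 17.3 CPM in KIKO mice (log2 fold change 0.81, standard error 0.68, unadjusted p = 0.264). *Gpt2*, a mitochondrial alanine aminotransferase gene, went the other way (log2 fold change -0.70, standard error 0.57, unadjusted p = 0.256). The secreted stress signal *Fgf21* and *Stc2* had 0 counts in all 5 libraries. *Chac1*, a glutathione-degrading enzyme gene often used as a mark of ATF4 activity, had at most 5 counts in any library.

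The charging enzymes, 20 genes of cytosolic aminoacyl-tRNA synthetases with the tRNA exporter *Xpot*, were all tested. They split into 10 with a positive and 11 with a negative log2 fold change (median -0.04), and 0 passed the thresholds. The smallest unadjusted p was that of *Vars* (0.204), which had 19.9 and 34.1 CPM in WT and 26.8, 101 and 28.4 CPM in KIKO mice (log2 fold change 0.94). *Iars* and *Farsb* had log2 fold changes of 0.64 and -0.77, with unadjusted p of 0.343 and 0.353. Without KIKO replicate 2 the values were 0.01 for *Vars*, 0.06 for *Iars* and -0.31 for *Farsb*.

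Of 26 other enzymes of serine, glycine, proline and folate metabolism, 21 were tested. Of these, 10 had a positive and 11 a negative log2 fold change (median -0.04), and 0 passed the thresholds. *Mthfd1*, the cytosolic folate enzyme gene, had a log2 fold change of -0.20 in all libraries. Without KIKO replicate 2 it passed the thresholds with -1.39 (unadjusted p = 0.0498), and its KIKO replicate 3 had 2 counts. *Mtrr*, which keeps methionine synthase active, was at 9.96 and 4.55 CPM in WT and at 11.0, 26.3 and 13.2 CPM in KIKO mice, without overlap (log2 fold change 1.23, standard error 0.78, unadjusted p = 0.151, and 0.76 without KIKO replicate 2). *Psph*, the last step of serine synthesis, had 5.98 and 9.10 CPM in WT and 10.25, 2.32 and 4.06 CPM in KIKO mice (log2 fold change -0.44, unadjusted p = 0.663, and -0.06 without KIKO replicate 2). For *Aldh1l2*, a mitochondrial folate enzyme gene, the log2 fold change was -0.57 (unadjusted p = 0.321).

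**Figure D4:**
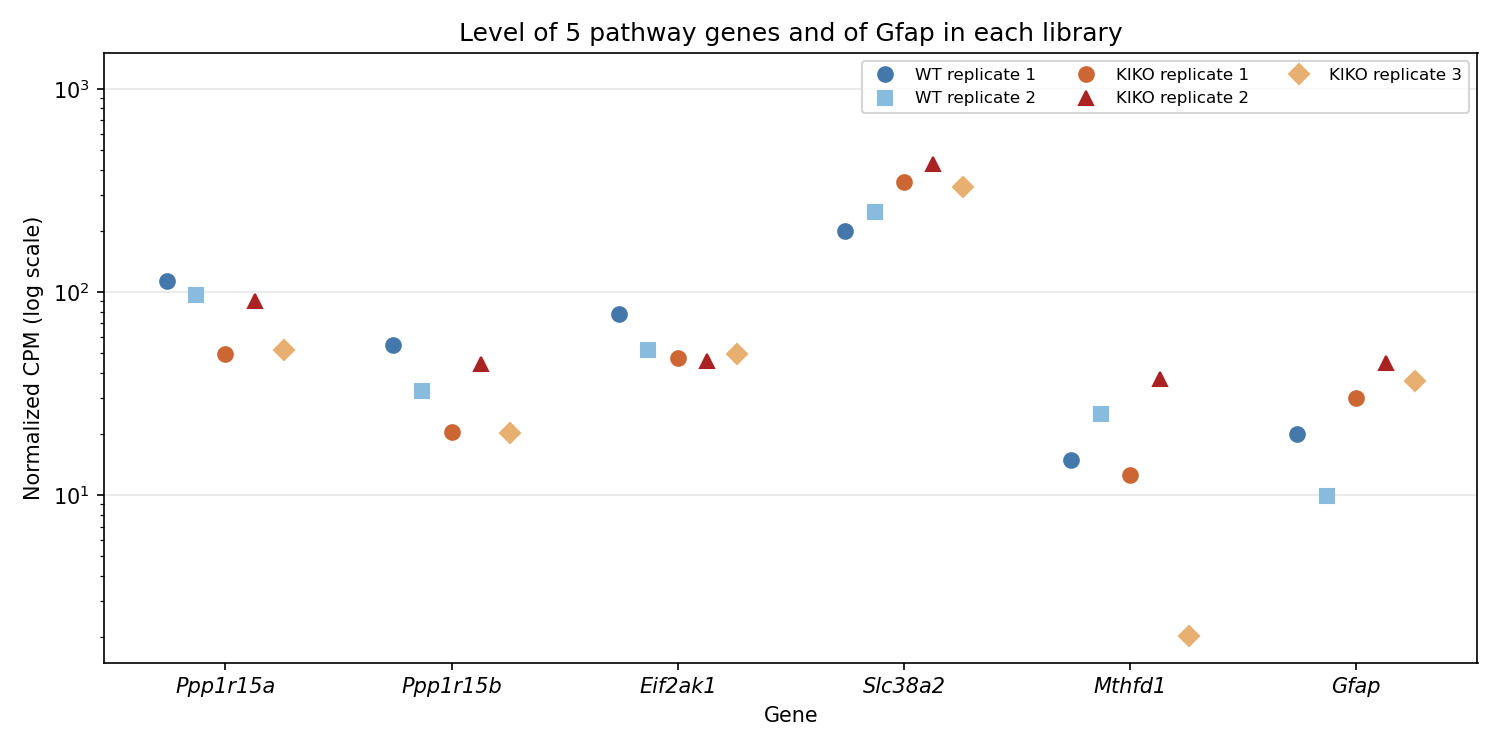
Normalized CPM (log axis) of 5 pathway genes and of the astrocyte marker *Gfap* in each library, 1 symbol per library. *Slc38a2* and *Gfap* are higher, and *Ppp1r15a* and *Eif2ak1* lower, in all KIKO than in all WT libraries. For *Ppp1r15a*, KIKO replicate 2 is closest to the WT level, and the groups overlap with library size alone.

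The neighbouring stress programmes gave the same count. All 20 genes of the endoplasmic reticulum unfolded protein response were tested, 7 with a positive and 13 with a negative log2 fold change (median -0.17), and 0 passed the thresholds. *Sel1l*, of the degradation machinery of that compartment, had the smallest unadjusted p (0.194) with a log2 fold change of 0.49, followed by *Dnajc3* (-0.38, and -0.23 without KIKO replicate 2) and *Hsp90b1* (-0.35). All 12 mitochondrial chaperone and protease genes were tested, 8 positive and 4 negative (median 0.04), and 0 passed. Without KIKO replicate 2 the balance turned to 3 positive and 9 negative (median -0.28), and in the endoplasmic reticulum list it was 4 positive and 16 negative (median -0.24). *Clpx*, the unfoldase of a matrix protease, had 1.99 and 12.9 CPM in WT and 19.7, 65.7 and 7.10 CPM in KIKO mice. The estimate, on the log2 scale, was 2.0 (standard error 1.06, unadjusted p = 0.0932). Without KIKO replicate 2 its log2 fold change was 0.81 (unadjusted p = 0.312). *Trap1*, a mitochondrial HSP90 gene, had 37.9 and 37.9 CPM in WT and 23.7, 15.5 and 22.3 CPM in KIKO mice, all KIKO libraries being lower (log2 fold change -0.89, standard error 0.47, unadjusted p = 0.0955). *Dnaja3*, a matrix co-chaperone gene, had a log2 fold change of 1.24 (unadjusted p = 0.196), which was -0.05 without KIKO replicate 2.

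Over the 6 pathway lists, 0 of 105 tested genes passed the thresholds, compared with 1.2% of all genes tested. In 12 of these 105 genes the groups did not overlap, 4 with KIKO higher and 8 with KIKO lower, compared with 16.7% of all genes.

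**Figure D5:**
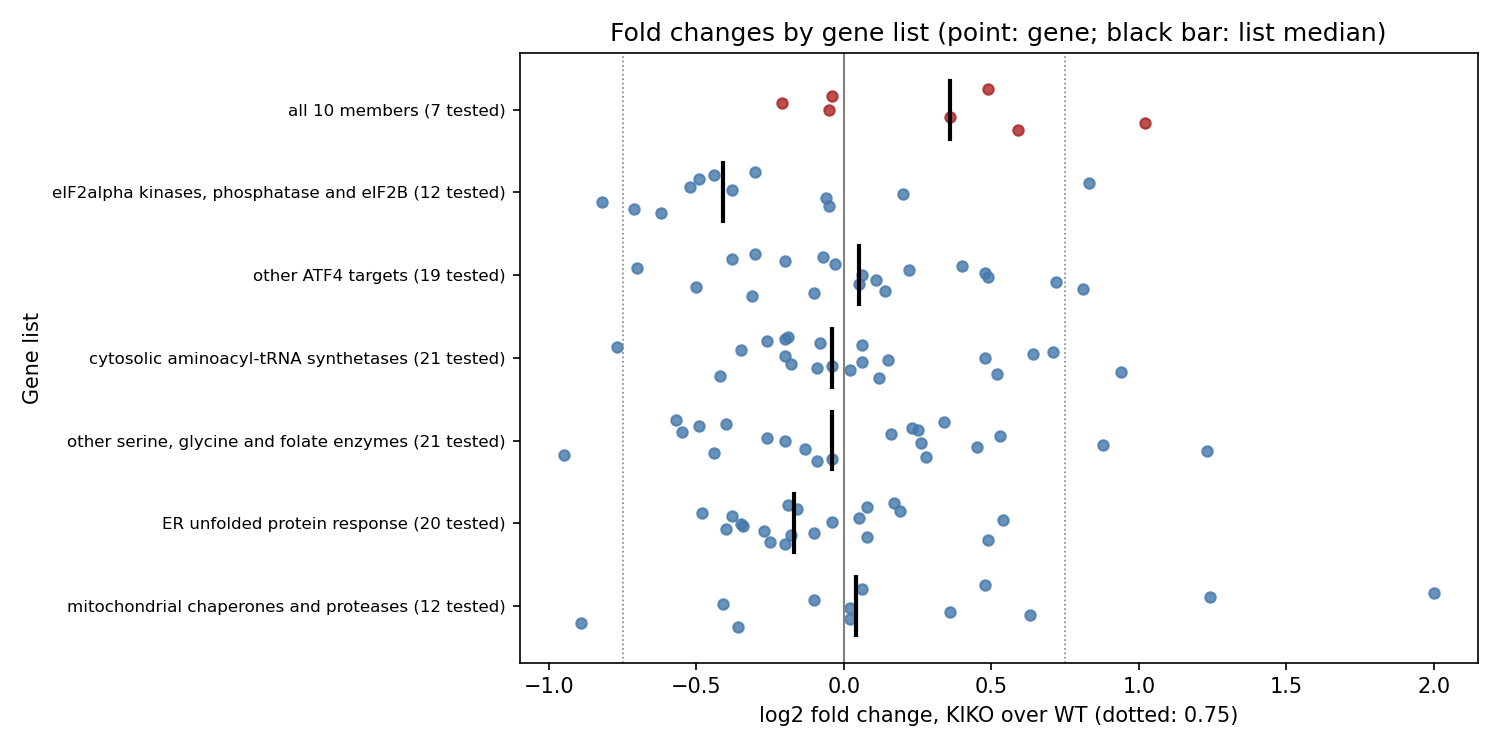
Log2 fold change of KIKO over WT (x axis) of each tested gene (points) in the 10-gene list and in 6 further lists, with the list median as a black bar. With all 5 libraries the medians lie between -0.41 for the eIF2alpha list (-0.06 without KIKO replicate 2) and 0.36 for the 10 genes (0.27), and the widest spread is that of the mitochondrial chaperones, from -0.89 to 2.0.

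Serine synthesis in the brain is known to be strongest in astrocytes and radial glia, so their markers were set beside the serine genes. Of 9 tested astrocyte and Bergmann glia markers, 7 had a positive log2 fold change (median 0.36), and *Gfap*, the intermediate filament gene of reactive astrocytes, was the only one past the thresholds. It had 19.9 and 9.86 CPM in WT and 30.0, 44.8 and 36.5 CPM in KIKO mice (log2 fold change 1.33, standard error 0.55, unadjusted p = 0.0400, adjusted p = 1). Over all genes tested, 1.2% passed the thresholds, 5648 of 10889 had a positive log2 fold change, and the median was 0.02. The call of *Gfap* is therefore not read as a result about the astrocyte list. The 10 astrocyte and Bergmann glia markers summed to 727 and 1460 CPM in WT replicates 1 and 2. They summed to 887, 1348 and 1070 CPM in KIKO replicates 1, 2 and 3, so the genotypes overlapped. In WT replicate 2, with the higher astrocyte sum of the WT libraries, *Psat1* was higher and *Phgdh*, with 6 and 7 counts in WT, was not. *S100b*, at 868 CPM, made up the greater part of that sum. *Gfap*, *Aqp4*, *Gja1* and *Fgfr3* were lower in WT replicate 2 than in WT replicate 1, and the remaining markers were higher. The part of astrocyte RNA in these levels was not tested.

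The remaining marker lists, read beside the members, had 0 genes past the thresholds, compared with 1.2% of all genes tested. The 6 endothelial markers summed to 397 and 851 CPM in WT and to 468, 834 and 506 CPM in KIKO replicates 1, 2 and 3, with *Flt1* and *Ly6c1* the most abundant. The 5 Purkinje markers, led by *Itpr1* and *Car8*, summed to 387 and 266 CPM in WT and to 593, 295 and 526 CPM in KIKO replicates 1, 2 and 3. Both sums overlapped between genotypes. The 5 neutrophil and monocyte markers summed to 16.9 and 33.4 CPM in WT and to 99.4, 32.5 and 36.5 CPM in KIKO libraries, with *S100a9* and *S100a8* the most abundant, and *Ly6c2* had 0 counts throughout. Among the most abundant markers were *Csf1r* (microglia), *Mbp* (oligodendrocytes), *Rbfox3* and *Snap25* (neurons), *Ttr* and *Enpp2* (choroid plexus) and *S100b* and *Slc1a3* (astrocytes). *Csf1r* had 1049 and 1148 CPM in WT and 877, 2667 and 1277 CPM in KIKO replicates 1, 2 and 3. KIKO replicate 2 was thus highest, as for *Psat1* and *Shmt2*. Other microglial markers differed, with *C1qb* highest in KIKO replicate 3, *Aif1* in WT replicate 1 and *Ptprc* in WT replicate 2. KIKO replicate 2 was the highest or the lowest library for 9 of the 12 microglial markers (75%) and for 71% of all genes tested. The part of these cells in the levels of the 10 genes was not tested.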

How the data were processed

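Bulk RNA sequencing of the cerebellum of WT and KIKO mice was analysed from the deposited files. Read trimming (Trimmomatic), alignment to mm10 (HISAT2) and counting per gene (featureCounts) were done by the authors. Deposited were whole-number counts per gene and, from DESeq2, log2 values that the authors normalized. The annotation and the strand setting of the counting are not given in the sources used here. Column names gave 2 WT and 3 KIKO libraries. WT replicate 3 was not analysed here, and 2 columns of per-sample values that match no sample label were not used. Each library held 1013107 to 1351339 counts, which limits the precision for weakly expressed genes.

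Gene names came from GENCODE M21 (31011 of 31053 identifiers). Genes passing filterByExpr (minimum count 10, minimum total 15) were fitted in edgeR 4.0.16 (R 4.3.3) with TMM factors and its two-sided quasi-likelihood test, adjusted by Benjamini-Hochberg over all 10889 genes. The standard error is the log2 fold change over the square root of F. CPM are counts over the TMM-scaled sum of the tested genes. The fit was tested on simulated data, but the outcome is not given here, so it is no evidence of error control. Alternatives were DESeq2 1.42.0, limma 3.58.1 with trend, RLE factors, no factors, filters of 1 count in total and of 10 in every library, the replicate number as a block, and each library left out. Setting counts under 3 to the floor was added after the data were seen.

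The 10 genes and the lists were chosen with earlier results of these data known. Named were the 10 genes, in each pathway list the genes past the thresholds or otherwise the 3 with the smallest p, in each marker list the most abundant (up to 2) and any past the thresholds, and the most and least alike members. Some genes that this rule names are not reported here. *Psph*, *Mthfd1*, *Chac1*, *Fgf21*, *Stc2* and *Ly6c2* were named after their values were seen.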

Additional observations from a re-analysis of the deposited data

How the results depend on the processing

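Of the 10 genes, 0 of those tested passed the thresholds in all 12 alternatives, in which 5 (10 counts in every library), 7 or 10 (at least 1 count) were tested. The median log2 fold change of the 7 genes, or of the 5 left by the stricter filter, ranged from 0.13 to 0.40. Of 82 single-gene values, 77 kept their direction. *Atf4* turned to 0.02 with library size alone. Without 1 library it ranged from -0.21 to 0.16 (*Atf5* from -0.74 to 0.67, *Ddit3* from -0.30 to 0.27), turning sign without WT replicate 1 (*Atf4*, and *Ddit3* at 0.04), WT replicate 2 (*Atf5*) or KIKO replicate 2 (*Ddit3*). *Psat1* ranged from 0.04 without KIKO replicate 2 to 2.13 without WT replicate 2. With 1 WT library left, its spread is assumed to be that of the KIKO libraries. Groups did not overlap for 3 of the 7 genes without KIKO replicate 1 or 2, and for 1 without KIKO replicate 3. Fewer libraries separate more easily, and the share over all genes is not given for these smaller sets. These counts are therefore not read as a result about the members. With 10 counts required in every library, which removes *Asns*, 0 of the 5 genes had groups that did not overlap. Over all genes, 131 passed the thresholds, 383 with every gene of at least 1 count and 52 (without WT replicate 1) to 693 (without KIKO replicate 2, where 8 also passed an adjusted p of 0.05 in edgeR). The share of these that were higher in KIKO was 59.5%, but 70.6% with DESeq2, 68.6% with library size alone, 66.8% with at least 1 count, 66.7% with limma, 40.2% with the block and 45.9% (without KIKO replicate 2) to 86.8% (without WT replicate 2) when 1 library was left out. Of the pathway genes, 0 passed, 1 (*Clpx*) with DESeq2 or with every gene of at least 1 count, and 0 to 4 without 1 library.

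The labels number the libraries in both genotypes, and nothing else pairs the mice. With the replicate number as a block, 1 residual degree of freedom was left, 271 genes passed the thresholds, 0 of them among the 10 genes and 2 (*Clpx*, *Farsb*) among the pathway genes. Deviations of same-numbered libraries from their genotype mean correlated across genes at 0.16 and 0.208. With 2 WT libraries, the WT deviations mirror each other, so swapping the WT library only turns the sign. WT replicate 1 and KIKO replicate 3, which share no number, reached 0.191. These r cannot decide whether the numbers pair the samples, and the main fit used no pairing. For none of these changes was the cause tested.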
